A study of Physcomitrium patens with 24 samples.

Results

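The sites described here are stretches of moss RNA called as protected by protein from a single-strand-specific RNase after 60 min of abscisic acid (ABA), set against those called at 0 min. They were taken from the deposited site lists of both times by the call names, which give the time, the RNase and the replicate. Of the 47102 sites in the 60-min list, 9050 (19.2%) carried an ssRNase name, as did 11136 of the 52248 sites (21.3%) in the 0-min list. Together these 20186 sites are part of 147131 sites in the 3 lists of the series.

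The tissue was protonema, the filamentous juvenile stage of the moss Physcomitrium patens, grown for 10 days, sonicated and kept for 3 days in shaken liquid culture, per the labels' protocols. The 60-min group received ABA for 60 min. The 0-min group is labelled 00 min ABA, and the protocol gives methanol, the solvent, to control cultures. All samples of both groups were crosslinked with formaldehyde and cut with RNaseONE, the single-strand-specific enzyme (ssRNase). Each group held 2 replicates of a plusP and of a minusP library, so 8 of the 24 libraries of the series stand behind the 4 call sets compared, each taken as made from 1 plusP and 1 minusP library. The labels describe minusP as lacking proteinase K and plusP by a protein kinase treatment, which does not settle what plusP received. The ssRNase and dsRNase libraries of a replicate were divided from 1 homogenate. The labels do not say how long the 0-min cultures stood after methanol, so ABA and elapsed time cannot be told apart. For the dose, the sources give 10 µM (design text) as well as 10 mM (treatment protocol). Separate cultures are not stated for the replicates, and the p-values therefore cover only the spread of these samples, possibly a technical one.

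ABA is the plant hormone of drought, salt and cold. In land plants it binds soluble receptors that inhibit protein phosphatases, which releases kinases and changes transcription within minutes, and in moss protonema it brings on tolerance of desiccation. Protein interaction profile sequencing (PIP-seq) compares RNA digested with its crosslinked proteins in place against RNA freed of protein before digestion. An ssRNase cuts unpaired RNA, so a site found with it is a stretch that kept more reads with protein present than without. Its partner enzyme in this series cuts paired RNA (RNase V1, dsRNase). The lists hold no read counts and no RNA levels, so depth is unknown, and more RNA and more bound protein in a region cannot be told apart, nor can more cells with an RNA and more RNA per cell.

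No annotation or genome of the build of the lists was used here. Regions therefore stand in for genes, positions are 1-based as in the lists, and no sequence is printed.

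Fewer calls were made at 60 min than at 0 min, and the difference lay mostly on the plus strand. The 60-min sets held 7420 and 7900 ssRNase calls, against 9611 and 8300 calls in the 0-min sets. Both 60-min sets lay below both 0-min sets, with means of 7660 ± 339 and 8955.5 ± 927 calls (SD, n = 2 each). The exact two-sided permutation test gave p = 0.333, the smallest value that 2 sets against 2 allow, so no difference between sets taken alone can pass 0.05. On the plus strand the 60-min sets had 3872 and 4254 calls, against 5795 and 4542 in the 0-min sets. On the minus strand they had 3548 and 3646 calls, against 3816 and 3758. Replicate 1 of 0 min stands apart in this, with 60.5% of its sites on the plus strand, against 54.1% in replicate 2 of 0 min and 52.3% and 53.1% in the 60-min sets. Without it, the difference in calls, 60 minus 0 min, was -640, in place of -1295.5.

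**Figure D1:**
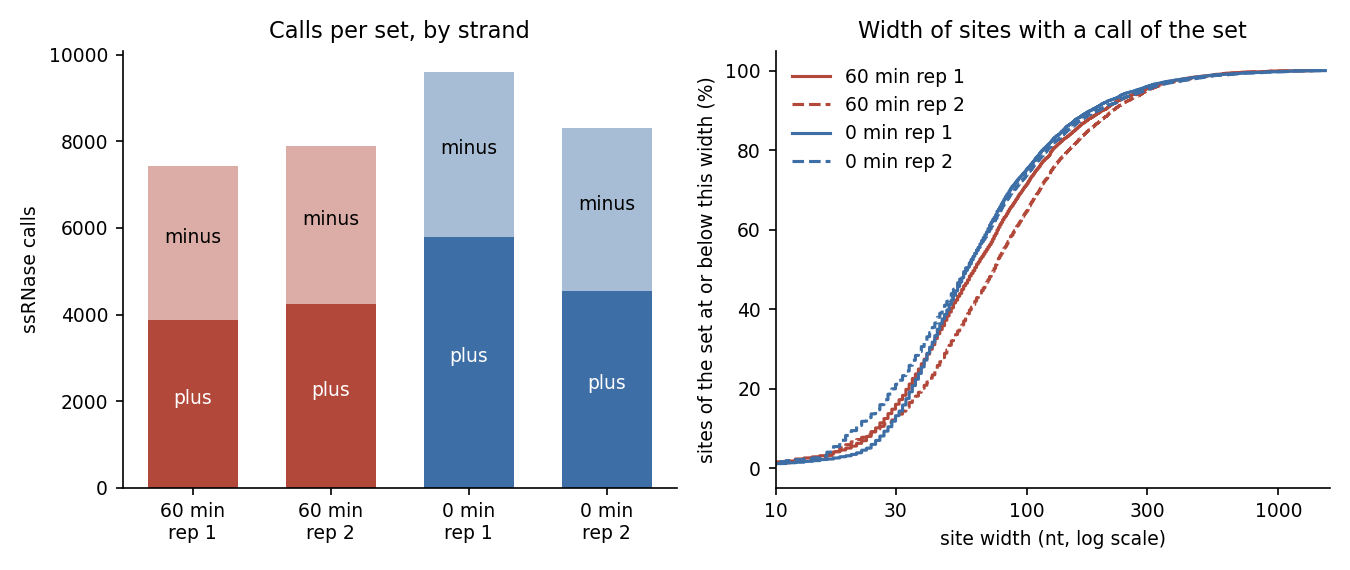
Left, the number of ssRNase calls in each set (y axis), split into plus strand (dark) and minus strand (pale). Right, the share of a set's sites (y axis, percent) at or below each width (x axis, nt, log scale). The 60-min sets sit at 7420 and 7900 calls, below the 8300 and 9611 of the 0-min sets, and replicate 2 of 60 min has the widest sites, with a median of 74 nt.

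By their median, sites were wider at 60 min. The median width of the sites with a call of the set was 62 and 74 nt in the 60-min sets, against 58 and 57 nt in the 0-min sets (exact permutation p = 0.333, n = 2 each). Sites of 200 nt or more made up 10.1% and 12.3% of the sites in the 60-min sets, against 8.32% and 9.45% in the 0-min sets. Their numbers overlapped, at 631 and 785 in the 60-min sets, against 696 and 652 in the 0-min sets. The lower quartiles of width overlapped too, at 38 and 44 nt, against 38 and 34 nt. A deposited site merges the overlapping calls of both RNases, so its width is not that of the ssRNase call alone. Among sites named by ssRNase alone, the medians were 28 and 26 nt at 60 min, against 31 and 25 nt at 0 min, and the groups overlapped. Among those also named by dsRNase they were 76 and 85 nt, against 69 and 71 nt. The wider sites of 60 min were thus seen among sites that both enzymes supported. SsRNase alone named 1722 of the 9050 sites at 60 min (19.0%) and 2249 of the 11136 at 0 min (20.2%). Of these, 493 (28.6%) at 60 min and 615 (27.3%) at 0 min were called in both replicates. With dsRNase support the shares called in both ssRNase replicates were larger, at 42.3% of 7328 sites and 39.6% of 8887 sites.

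To compare positions, same-strand sites of both times sharing 1 nt or more were joined into loci. Of 14721 loci, 4872 had an ssRNase call in both lists, 3733 only in that of 60 min and 6116 only in that of 0 min. Of the loci called at 60 min, 56.6% were also called at 0 min, and of those called at 0 min, 44.3% were also called at 60 min. A locus is termed gained here when both 60-min sets and neither 0-min set called it, and lost in the opposite case. By this rule 812 loci were gained (5.52% of all), 1066 were lost (7.24%) and 2117 were called in all 4 sets and termed kept (14.4%). Single calls outnumbered all of these. Replicate 1 of 0 min alone called 3282 loci and replicate 2 of 0 min alone 1768, and the 60-min sets alone called 1376 and 1545. With only 1 of the 0-min sets used, 2834 or 4348 loci would count as lost, and with only 1 of the 60-min sets, 2188 or 2357 as gained.

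**Figure D2:**
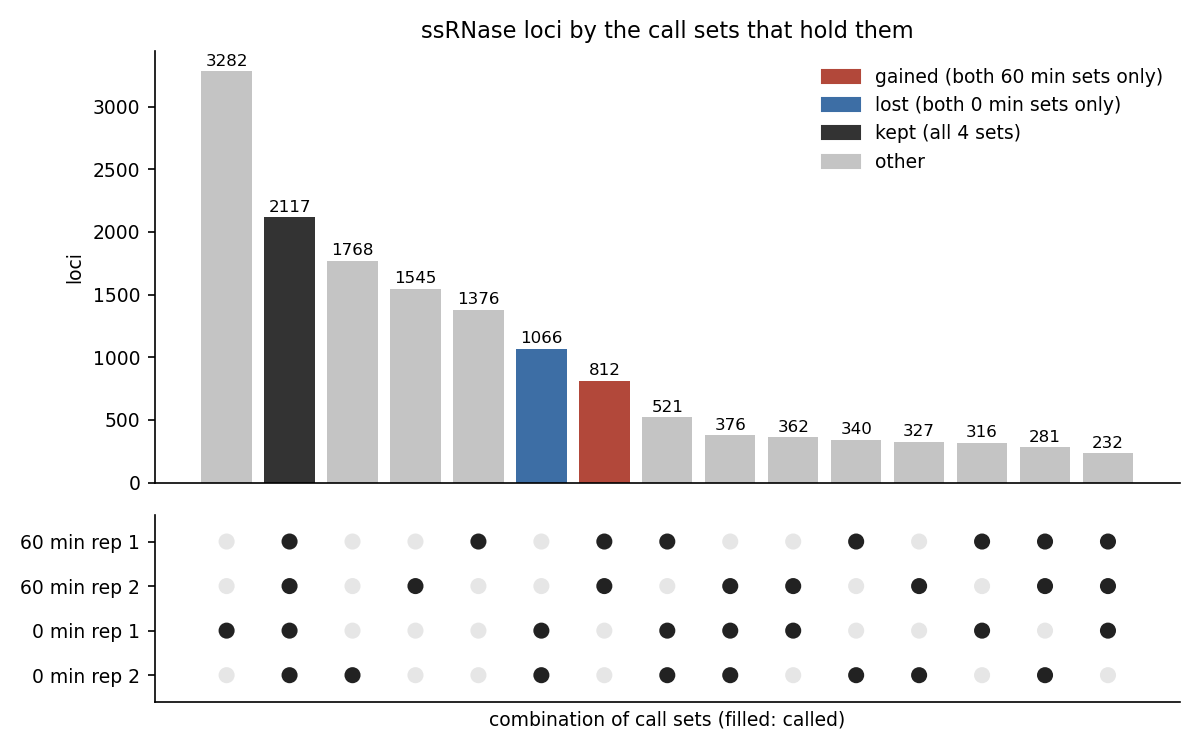
The number of loci (bars, y axis) for each combination of the 4 ssRNase call sets (filled dots below). Kept loci number 2117, lost loci 1066 and gained loci 812, and the tallest bar is the 3282 loci of replicate 1 of 0 min alone.

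The sets of 1 time shared more loci than sets of different times. The 60-min sets shared 40% of the 8605 loci called in either, and the 0-min sets 37.1% of 10988. Between the times the share ran from 27.5% (replicate 2 of 60 min with replicate 1 of 0 min) to 34.2% (replicate 1 of 60 min with replicate 2 of 0 min). All 4 pairs across times thus lay below both pairs within a time. The deposited sites were already merged within a time over replicates and enzymes. Part of the higher sharing within a time may come from that merging, which was not tested. Replicate 2 of 0 min shared more with both 60-min sets (34.2% and 31.8%) than did replicate 1 (28.8% and 27.5%).

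Over all loci the median width was 56 nt and 56.5% lay on the plus strand. Gained loci had a median width of 84.5 nt (quartiles 51 and 141 nt), and lost loci 56 nt (38 and 89.8 nt). Kept loci were widest, at 94 nt (55 and 189 nt), and loci of a single set narrowest, at 55 nt for the 60-min sets and 43 nt for the 0-min sets. A wide locus overlaps more readily, so width and recurrence were not separated. The plus strand held 51.4% of the gained, 62.7% of the lost and 51.3% of the kept loci. Replicate 1 of 0 min had a plus-strand excess of its own, as given above, and its part in the lost loci was not tested. Overlap with a site on the opposite strand was rare, at 0 of 812 gained, 11 of 1066 lost and 13 of 2117 kept loci.

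Loci were classed by ssRNase names alone, but their bounds come from sites merged over both enzymes. DsRNase calls thus helped to set which sites overlap and are not an independent readout here. At gained and lost loci the dsRNase calls differed between the times. At gained loci 85.0% and 85.8% had a call in the dsRNase sets of 60 min, against 30.5% and 30.4% in those of 0 min. At lost loci the shares were 53.9% and 49.8% at 60 min, against 78.7% and 73.8% at 0 min. At kept loci they were 81.0% and 83.2%, against 86.4% and 82.5%, and the groups overlapped. The difference between the times was therefore larger at gained than at lost loci, by 54.9 percentage points up at gained and 21.8 down at lost when a call in either set of a time counts. In all, 455 of the 812 gained loci (56.0%) had a dsRNase call at 60 min and none at 0 min, and 287 (35.3%) had one at both times. Of the 1066 lost loci, 245 (23.0%) had a dsRNase call at 0 min and none at 60 min, and 645 (60.5%) had one at both times. Over all 14721 loci the shares were 11.9% for 60 min and not 0 min, 12.6% for 0 min and not 60 min, and 59.4% for both times. The share of lost loci with a dsRNase call at both times was thus near that of all loci. In either 0-min set a dsRNase call was found at 36.5% of gained loci, against 72.0% of all loci. A dsRNase call in either 60-min set was found at 61.7% of lost loci and in both at 42.0%, against 71.3% and 54.4% of all loci. Sites merge the calls of both enzymes within a time, so a dsRNase call of the time that holds the ssRNase site is found more readily than one of the other time. This holds for gained and lost loci alike.

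**Figure D3:**
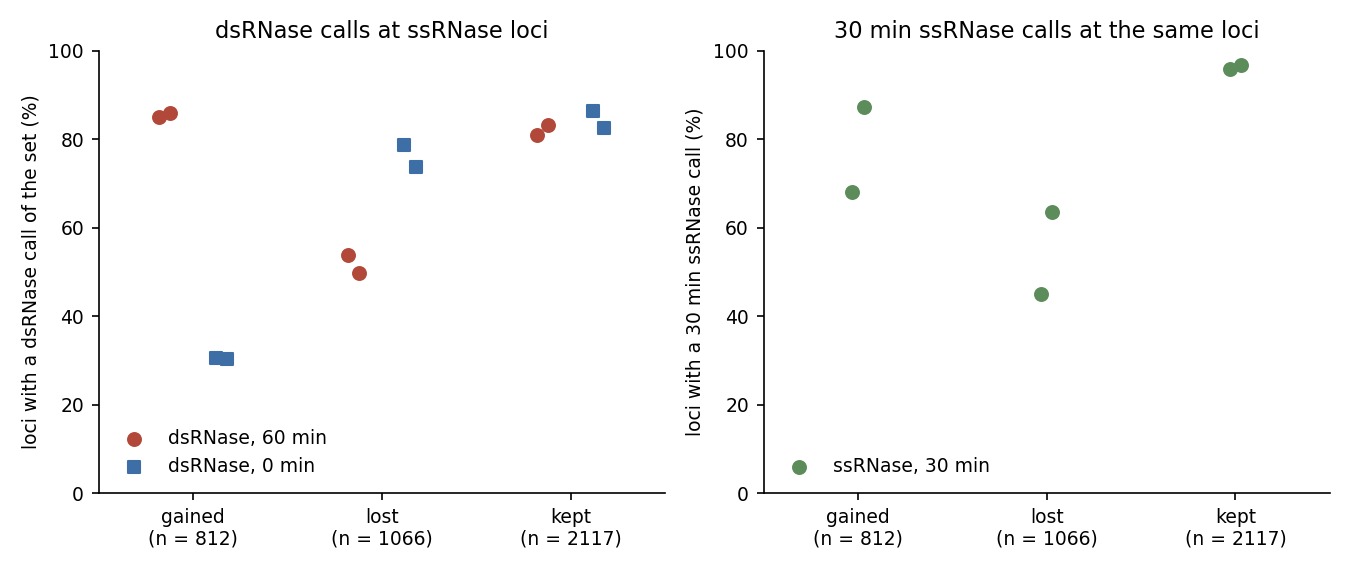
Left, the share of loci (y axis, percent) with a call in each of the 2 dsRNase sets of 60 min (circles) and 0 min (squares), for gained, lost and kept ssRNase loci. Right, the share with a call in each of the 2 ssRNase sets of 30 min. At gained loci the dsRNase shares are 85.0% and 85.8% at 60 min, above 30.5% and 30.4% at 0 min.

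Calls of 30 min, the time between, were found at 67.5% of all 14721 loci, and in both 30-min sets at 39.4%. At gained loci the shares were 744 of 812 (91.6%) and, in both sets, 517 (63.7%). At lost loci they were 762 of 1066 (71.5%) and, in both sets, 396 (37.1%), near those of all loci. Of the kept loci, 99.4% had a 30-min call. The 30-min list held more ssRNase sites, 15850, than those compared here, and replicate 2 of 30 min called more gained loci (87.3%) than replicate 1 (68.0%).

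Loci with gaps under 500 nt were next joined, strand by strand, into 7731 regions with a median span of 73 nt. Of these, 4938 held 1 locus and 591 held 5 or more. Calls of both times were found in 2978 regions, calls of 60 min only in 1485 and calls of 0 min only in 3268. Regions with 3 or more gained loci numbered 55, from 575 regions with any, and regions with 3 or more lost loci 24, from 915. Of the gained loci, 613 (75.5%) lay in regions with no ssRNase call at 0 min, and of the lost loci 603 (56.6%) lay in regions with no ssRNase call at 60 min. A kept locus stood in the region of 99 gained loci (12.2%) and of 233 lost loci (21.9%). Both a gained and a lost locus were found in 20 regions.

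Along the genome the changes were uneven. The ratio of 60-min to 0-min calls ran from 0.672 on chromosome 11 and 0.681 on chromosome 15 to 1.07 on chromosome 10 and 1.14 on chromosome 22. Chromosome 22 had the largest share of gained loci among the 27 chromosomes, 61 of 471 (13.0%), and 31 of them lay between 14 and 15 Mb, where 80 loci were found and 1 was lost. The most lost loci in a window of 1 Mb, 16 of 60, lay between 5 and 6 Mb of chromosome 16. Scaffolds held 151 of all loci, with 0 gained, 6 lost and 46 kept.

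Kept loci were most crowded at the start of chromosome 20. Its first Mb held 428 loci, of which 238 (55.6%) were kept, 2 gained and 14 lost. These are 11.2% of all kept loci. The first 250 kb held 413 of them, and all 413 were on the minus strand. The 60-min sets called 318 and 286 of the 428 loci, and the 0-min sets 375 and 318. A dsRNase call of either time was missing at 190 of the 428, whereas 9.12% of kept loci and 16.1% of all loci lacked one.

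The number of called loci per region was then compared between the times. It was taken on a log2 scale after adding 0.5 calls, scaled to the calls of each set on each strand, and fitted with limma over the 848 regions with a mean of at least 2 called loci per set, with Benjamini-Hochberg adjustment. More ssRNase calls at 60 than at 0 min were found in 51 regions (6.01% of those tested) and fewer in 14 (1.65%) at an adjusted p below 0.05. Without scaling, these counts were 54 and 31. The median fitted change of all 848 regions was 0.16 on the log2 scale with scaling and -0.08 without. An unadjusted p below 0.05 was found for 167 regions. With either of the 0-min sets left out, limma called 0 regions (unadjusted p below 0.05 in 160 and 264 regions), and without replicate 1 or 2 of 60 min the counts were 83 and 71, and 46 and 68. With 1 set left out, the remaining set of that time is assumed to vary like the pair of the other time. The sign of each of the 51 and 14 regions was the same wherever it was tested without a set. In all of them both 60-min sets lay beyond both 0-min sets, so leaving 1 set out could hardly turn a sign. Not all were tested: 31 and 19 of the 51 without replicate 1 or 2 of 60 min, and 6 and 9 of the 14 without replicate 1 or 2 of 0 min.

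Gains were mostly from nothing. In 45 of the 51 regions (88.2%) neither 0-min set had an ssRNase call, against 52 of all 848 tested (6.13%). The minimum of 2 calls on average admits a region empty at 0 min only where the 60-min sets held many calls, so these regions had to differ. In 10 of the 14 regions with fewer calls neither 60-min set had one, against 11 of all 848, and the same limit holds for these.

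**Figure D4:**
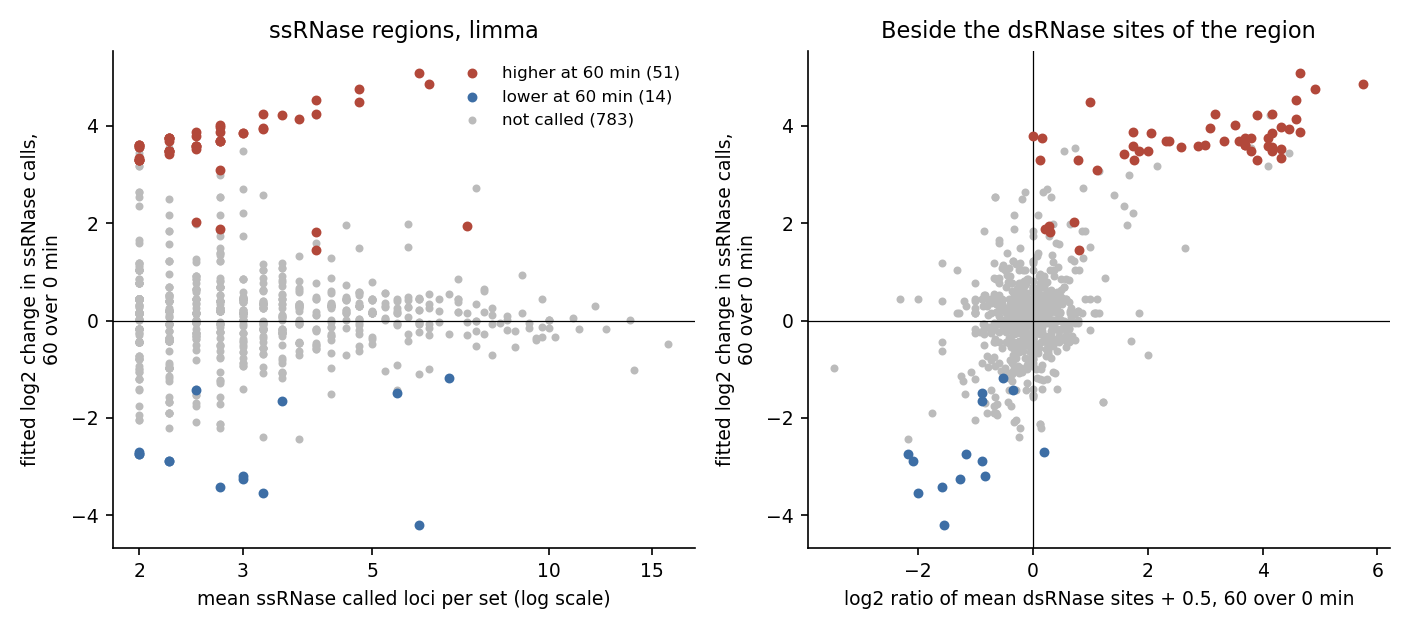
Each point is 1 of 848 regions; the y axes give the fitted log2 change in ssRNase calls, 60 over 0 min, with regions called higher in red (51), lower in blue (14) and the rest in grey. The x axis is the mean number of ssRNase called loci per set (left, log scale) or the log2 ratio of mean dsRNase sites plus 0.5 (right); fitted changes of regions with no call at 1 time depend on the added 0.5 calls.

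The region with the largest fitted rise lay on chromosome 6 (16765451 to 16769711, plus strand) and spanned 4261 nt. It had 12 and 12 ssRNase called loci in the 60-min sets, against 0 and 0 in the 0-min sets, which is at least 4-fold more when 3 calls per set are taken as the floor (adjusted p = 0.0176, limma). Its sites covered 1708 nt at 60 min. DsRNase sites numbered 25 and 24 at 60 min, against 1 and 0 at 0 min. At 30 min the ssRNase sets already had 13 and 15 sites in this region. The 30-min numbers of regions count sites of the larger 30-min list, and not the called loci counted for 60 and 0 min. The dsRNase numbers of regions likewise count sites, and not called loci. Both enzymes thus gave almost no sites there at 0 min and many at 60 min.

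The second, on chromosome 17 (5181069 to 5184734, minus strand), had 14 and 11 ssRNase called loci in the 60-min sets and 0 and 0 in the 0-min sets, at least 4.17-fold more (limma adjusted p = 0.0176). Its dsRNase sites numbered 28 and 25, against 0 and 0. The 30-min ssRNase sets had 5 and 8 sites there. On chromosome 4 (15610510 to 15613522, plus strand) 9 and 10 called loci at 60 min stood against 0 and 0, at least 3.17-fold more, with 9 and 8 ssRNase sites at 30 min. Here the sites covered 2074 of the 3013 nt of the region, the most of the 10 regions named for a rise. On chromosome 9 (17040316 to 17043048, minus strand) there were 10 and 9 called loci, against 0 and 0. This region differs from the others in that dsRNase already had 6 and 6 sites at 0 min, against 12 and 13 at 60 min.

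The remaining 6 of the 10 largest rises also stood against 0 in both 0-min sets, with limma adjusted p from 0.0176 to 0.0315. A plus-strand region on chromosome 17 (9737737 to 9740117) had 8 and 8 called loci at 60 min, and a minus-strand region 14.4 kb away (9721117 to 9723343) had 6 and 6. Each holds a gained locus of exactly 793 nt, so they may be inverted copies that share reads, and their calls may not be independent. On chromosome 5 (19881638 to 19883016, plus strand) there were 7 and 6 called loci, and on chromosome 9 (12690896 to 12692766, minus strand) 9 and 7. The chromosome 12 region (17295416 to 17296976, minus strand) had 6 and 9, and the chromosome 13 region (16932075 to 16933157, plus strand) 5 and 6. In the chromosome 15 region (10339194 to 10342940, plus strand) the 60-min sets differed most, with 4 and 10, and the call did not pass without scaling (limma adjusted p = 0.096) or with call names counted (0.0535). In these 6 regions, the minus-strand one on chromosome 17 aside, dsRNase had between 8 and 24 sites per set at 60 min, against 0 to 2 at 0 min.

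**Figure D5:**
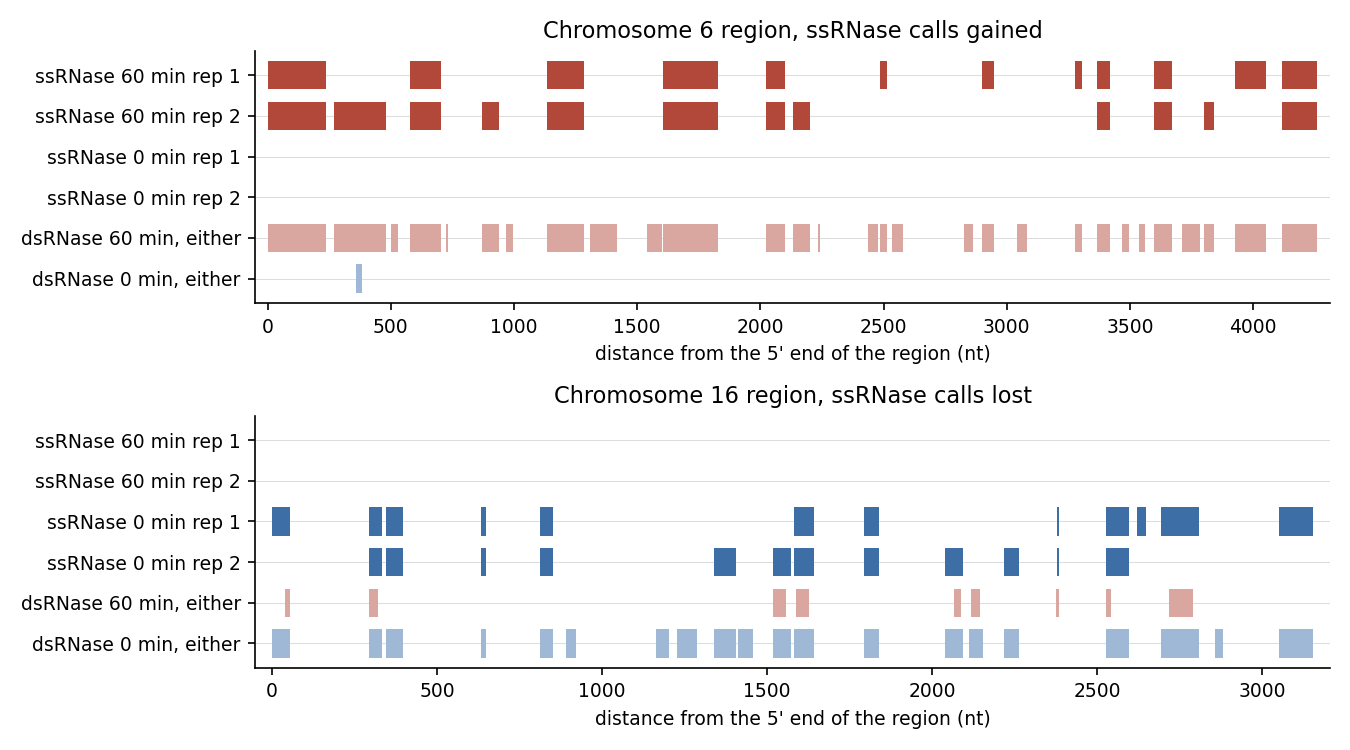
Sites with a call of each ssRNase set, and of either dsRNase set of a time, drawn to scale along the chromosome 6 region (top) and the chromosome 16 region (bottom); the x axis is the distance in nt from the 5′ end of the region. The top region has 12 and 12 ssRNase called loci at 60 min and 0 at 0 min, and the bottom region 0 at 60 min and 12 and 12 at 0 min.

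Regions that gained calls also lay side by side. On chromosome 22 there were 3 of them on the minus strand, starting at 14155157, 14165117 and 14167090 and separated by 8574 and 576 nt. Their called loci numbered 6 and 4, 5 and 4, and 6 and 7 in the 60-min sets, against 0 in both 0-min sets for each. They hold 3, 3 and 6 of the 31 gained loci of that window. On chromosome 10 a pair 616 nt apart (5030277 to 5031099 and 5031716 to 5032623, plus strand) had 4 and 4 and 5 and 4 called loci at 60 min, against 0 at 0 min, and a single transcript could hold both.

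Gains within regions that ssRNase already called at 0 min numbered 6 of the 51. On chromosome 6 (18747498 to 18749613, minus strand) 11 and 12 called loci at 60 min stood against 3 and 3 at 0 min, a rise of 1.94 ± 0.16 on the log2 scale (SE, limma adjusted p = 0.0195). Its dsRNase sites differed far less, with 13 and 14 at 60 min against 10 and 12 at 0 min. On chromosome 1 (17575859 to 17578290, plus strand) there were 6 and 5 called loci, against 3 and 2 (log2 1.45 ± 0.19, limma adjusted p = 0.0333), the smallest fitted rise that passed. Equal counts give 0.44 on this strand after scaling.

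In 47 of the 51 regions (92.2%) both dsRNase sets of 60 min lay above both of 0 min, against 24.3% of all 848 tested. In 13 of the 14 regions with fewer ssRNase calls both lay below, against 20.6% of all tested. Most of these regions had ssRNase sites of a single time. Their bounds then come from sites merged with the dsRNase calls of that time, whose dsRNase sites are found more readily. The dsRNase shares are therefore not an independent readout of these regions.

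In 5 regions that passed, the ssRNase sets were apart and the dsRNase sets overlapped. They were picked out after their values were seen, and the difference between the enzymes was not tested. On chromosome 15 (4898725 to 4901420, plus strand) ssRNase had 3 and 7 called loci at 60 min, against 0 and 0 at 0 min, while dsRNase had 10 and 10 sites, against 9 and 11. On chromosome 23 (9752950 to 9754922, plus strand) ssRNase had 5 and 4, against 0 and 0, and dsRNase 5 and 4, against 4 and 4. On chromosome 3 (20194333 to 20195424, minus strand) ssRNase had 3 and 5, against 0 and 0, and dsRNase 6 and 6, against 6 and 5. These 3 regions were protected from dsRNase at both times, and ssRNase calls appeared in them at 60 min. The chromosome 19 region (856051 to 857619, plus strand) had 6 and 6 ssRNase called loci, against 2 and 2, and 11 and 9 dsRNase sites, against 9 and 7. The fifth, on chromosome 3 (19944812 to 19945903, plus strand), went the other way, with 0 and 0 ssRNase called loci at 60 min, against 5 and 3, and 9 and 6 dsRNase sites, against 6 and 7; its fall did not pass with a prior of 1 call (limma adjusted p = 0.0507).

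The largest fall was on chromosome 16 (5299867 to 5303020, plus strand), in the window with the most lost loci. Its ssRNase called loci numbered 0 and 0 at 60 min, against 12 and 12 at 0 min, at least 4-fold fewer (limma adjusted p = 0.0176). DsRNase sites were not all gone, with 4 and 7 at 60 min, against 17 and 17 at 0 min. At 30 min ssRNase had 5 and 9 sites, which are not counted as called loci, so the 3 times were not ranked.

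The other 9 of the 10 largest falls likewise ended at 0 in both 60-min sets. On chromosome 22 (5678909 to 5680272, plus strand) 0 and 0 called loci stood against 6 and 6 at 0 min, and on chromosome 23 (12021953 to 12023109, minus strand) against 6 and 5. On chromosome 4 (5854687 to 5856391, plus strand) they stood against 8 and 4, and on chromosome 26 (7033023 to 7034670, plus strand) against 5 and 4. These regions kept dsRNase sites at 60 min, between 3 and 8 per set, against 9 to 14 at 0 min. The region at 2429923 to 2430673 of chromosome 19 (minus strand) was different, with 0 and 0 ssRNase called loci at 60 min, against 9 and 4, and hardly any dsRNase sites at either time (0 and 0, against 1 and 2). Regions on chromosome 25 (2624443), chromosome 1 (2577809) and chromosome 21 (13819718), all on the plus strand, had 4 or 5 called loci per set at 0 min and did not pass with a prior of 1 call (limma adjusted p from 0.0585 to 0.0609). Without scaling, the chromosome 19 and chromosome 4 regions did not pass (0.077 and 0.062). Of the 14 regions that fell, 11 were on the plus strand, against 475 of the 848 tested.

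Partial falls passed in 4 regions. On chromosome 16 (8727493 to 8729651, plus strand) there were 1 and 1 called loci at 60 min, against 7 and 5, a fall of 1.66 ± 0.18 on the log2 scale (limma adjusted p = 0.024), with 7 and 6 dsRNase sites, against 14 and 11. On chromosome 3 (11138679 to 11141277, plus strand) there were 3 and 3, against 13 and 8, and 12 of its 38 pairs of neighbouring sites recur elsewhere, so reads may be shared. On chromosome 13 (15102453 to 15104656, plus strand) there were 2 and 2, against 9 and 9. On chromosome 25 (474293 to 475645, minus strand) there were 1 and 1, against 4 and 4.

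The regions with the most ssRNase calls did not pass the test. The largest, on chromosome 21 (2831244 to 2839858, plus strand), had 13 and 9 called loci at 60 min, against 23 and 19 at 0 min (log2 -0.48 ± 0.27, limma adjusted p = 0.435), and its covered length was 2849 nt, against 5106 nt. The chromosome 14 region (5634164 to 5642435, plus strand) had 5 and 10, against 23 and 18 (log2 -1.02 ± 0.37, limma adjusted p = 0.279), and 993 nt, against 3144 nt. In both, the 60-min sets lay below the 0-min sets, as in 20.3% of all tested regions, and both sets lay above in 12.5%. The next regions were near level. On chromosome 19 (5681270 to 5683325, minus strand) the counts were 13 and 13, against 15 and 14, on chromosome 4 (19983356 to 19986921, minus strand) 12 and 10, against 13 and 15, on chromosome 17 (6775047 to 6777521, plus strand) 9 and 14, against 11 and 14, and on chromosome 20 (89935 to 92448, minus strand) 10 and 9, against 18 and 8. Their fitted changes lay between -0.17 and 0.30 on the log2 scale. The signs for chromosomes 19 and 17 turn without scaling.

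In the widest kept loci the widest merged site was narrower at 60 min or about as wide. On chromosome 22 a pair (8261506 to 8263042 and 8324356 to 8325884, plus strand) had widest sites of 597 and 647 nt at 60 min, against 1537 and 1529 nt at 0 min. The ssRNase calls of this pair were not fewer, at 4 and 9, and 4 and 10, at 60 min, against 3 and 7 at 0 min in each locus. Whether the 2 loci are copies was not tested. On chromosome 26 (1819 to 3190, minus strand) the widest site was 1372 nt at 60 min, against 1358 nt, and on a scaffold (17443 to 18796, plus strand) 1276 nt, against 1350 nt. The widest gained loci lay on chromosome 19 (4792507 to 4793557, minus strand, 1051 nt, and 4816386 to 4817169, plus strand, 784 nt) and in the chromosome 17 pair of 793 nt each. The widest lost loci were narrower. The widest was 495 nt (chromosome 5, 9095092 to 9095586, plus strand) and the next 491 nt (chromosome 9, 3812128 to 3812618, plus strand), followed by a chromosome 5 pair of 432 nt each (9051029 and 9059636, minus strand). The chromosome 5 pair had equal calls in each ssRNase and dsRNase set of 60 and 0 min, so the 2 loci may be copies with common reads. All 4 of these lost loci still had dsRNase calls at 60 min, 3 to 5 in replicate 1 and 6 to 9 in replicate 2. Regions in which a larger share of the pairs of neighbouring sites recurs elsewhere in the lists numbered 92 of the 848 tested (10.8%), 0 of the 51 that rose and 1 of the 14 that fell. Smaller shares were also found in regions that rose, such as 2 of 8 pairs on chromosome 17 (9721117) and 3 of 12 on chromosome 3 (20194333). Among those that fell, 2 of 10 pairs recurred on chromosome 25 (2624443). Copies among these regions are therefore not excluded.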

How the data were processed

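PIP-seq libraries were made from crosslinked protonema and cut with ssRNase or dsRNase. Per the submitters' processing notes, cutadapt 1.2.1 and TopHat2 2.0.10 were used; the build given there, mm10, is a mouse build that the chromosome names contradict, so no build is taken from them. No label names the peak caller; the list names hold CSAR and an FDR of 5%. The authors deposited 1 list of merged sites per time, with positions, call names (other values) and a score of no stated unit, used here only to split each list at its median score. Calls per set were counted from the names. Depth is unknown.

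Loci (overlap of at least 1 nt on a strand) and regions (gaps under 500 nt) were built from sites with ssRNase names of 60 and 0 min. Region counts were fitted with limma 3.58.1 in R 4.3.3 with a mean trend, on the 4 ssRNase sets alone (2 residual degrees of freedom), adjusted over all 848 regions tested. Regions with equal counts in both sets of each time take their spread from the trend. In simulated data the fit called no unchanged region and missed most of the changed ones, so regions that did not pass may still differ. The simulation drew calls independently around each region's mean, added no spread between replicates and set no region empty at 1 time. It therefore cannot show how often unchanged regions pass in the real data. Exact permutation tests, two-sided, compared counts between sets (scipy 1.17.1). Named regions are the 10 largest changes each way past an adjusted p of 0.05 with sets apart, and the 6 most called; named loci are the 4 widest of each class. Alternatives varied scaling, prior, minimum, gap, score, fit and sets. Members, comparisons and rules were chosen with earlier results of these data known. Genes and sequences were not analysed here.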

Additional observations from a re-analysis of the deposited data

Results flagged for a closer look

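In 2 of the named regions the unscaled counts of the 2 enzymes differed in opposite directions between the times, with both 60-min sets beyond both 0-min sets for each enzyme. This difference was not tested, and the 60-min sets held fewer ssRNase calls in all (ratio of means 0.855). The units also differ, since ssRNase numbers count loci joined over both times and dsRNase numbers count sites. A small difference between the enzymes may come from this. In the most called region, on chromosome 21 (2831244), the mean number of ssRNase called loci was 11 at 60 min and 21 at 0 min, a change of -10, and that of dsRNase sites was 69 and 65.5. In the chromosome 19 region (5681270) the mean ssRNase number was 13 at 60 min and 14.5 at 0 min, a change of -1.5, and the mean dsRNase number was 15 and 13; its scaled ssRNase change was 0.01 on the log2 scale, so only its unscaled count was lower. Among all 848 tested regions, by unscaled counts, fewer ssRNase calls with more dsRNase sites were found in 33 and the reverse in 5, against 71 where both were more and 63 where both were fewer. For ssRNase, both 60-min sets lay below both 0-min sets in 20.3% of the 848 and above in 12.5%. For dsRNase, the shares were 20.6% below and 24.3% above. Opposite directions were thus less frequent than common ones. With scaling, 29 of the 33 had a log2 change in ssRNase calls below 0 and 4 did not. In 11 of the 38 opposite regions (28.9%) a larger share of the pairs of neighbouring sites recurred elsewhere in the lists, against 10.8% of all tested.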

How the results depend on the processing

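The lower number of calls at 60 min kept its sign under all settings tried, with differences of -1951 to -640 calls when 1 set was left out. The width difference (10.5 nt) kept its sign, with 4.5 to 16.5 nt when 1 set was left out, except among sites named by ssRNase alone, where it was -1 nt. Loci gained and lost numbered 222 and 270 among sites named by ssRNase alone, and ranged from 1044 to 2357 and from 1442 to 4348 with 1 set left out, since 1 call then decides; without replicate 1 or 2 of 60 min gains outnumbered losses. The excess of agreement within times was 8.01 percentage points and 14.1 among sites above the median score. For regions, more and fewer calls passed in 145 and 57 at a minimum mean of 1 (2354 tested), 19 and 7 at a minimum of 3 (405 tested), 20 and 8 with a 200 nt gap, 81 and 15 with call names counted, 114 and 26 in the fit of 6 sets, 54 and 31 without scaling, and 53 and 8 with a prior of 1 call. Leaving out 1 set gave 0 to 83 and 0 to 71. With the replicate number as a block, limma called 0 and 0 (159 with an unadjusted p below 0.05); sets share only a number, and their deviations correlated at 0.031 over 848 regions. The 51 risen and 14 fallen regions kept their sign wherever they were tested under other scalings, priors, minimums and call names. They also kept it in the fit of 6 sets, with the block and with left-out sets. In each of them both 60-min sets already lay beyond both 0-min sets, so a sign could hardly turn and its keeping is no support. With a 200 or 1000 nt gap and by score these regions were not matched. Of the 20 named, 17 still passed without scaling, 16 with a prior of 1 call and 19 with call names. Of the most called regions, signs turned on chromosome 19 without scaling (-0.15), with call names (-0.13) and without replicate 2 of 0 min (-0.0023; 0.023 without replicate 1), on chromosome 4 with call names (0.25), on chromosome 17 without scaling (-0.14) and without replicate 1 of 0 min (-0.089; 0.69 without replicate 2), and on chromosome 20 without replicate 1 of 0 min (0.36; -0.69 without replicate 2). The first Mb of chromosome 20 was left out after the data were examined, which gave 810 and 1052 loci and 50 and 12 regions. Depth is unknown, so none of these counts can be set against it.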

Other observations

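Where loci lay along their region, in the direction of the strand, was read in regions of at least 1000 nt, built from all sites of 60 and 0 min and split into 3 equal parts. Over all 8780 such loci the 3′-most part held 37.1% of centres and the 5′-most part 33.3%. The 3′-most part held 40.03% of 672 gained loci, 43.8% of 616 lost loci and 39.6% of 1128 kept loci. For loci called in a single set it held 34.7% of those of 60 min and 36.2% of those of 0 min. The 5′-most part held 32.4%, 33.3% and 31.7% of gained, lost and kept loci. No test was made, since loci of 1 region are not independent.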
